A study of Mus musculus with 8 samples.

Results

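The 42 genes described here are expressed in dividing cells and act in S phase or mitosis. They were chosen by symbol, from a list of cell cycle and mitosis genes, out of 48709 genes in the count files of the P1 mouse cortex. All 42 had counts in every library. RNA was isolated from whole postnatal cortex for 4 control and 4 dcKO_Nex-Cre samples at P1, with 1 library per sample, and the labels name the groups only as control and mutant, the mutant being a double knock-out of the BAF complex. In the dcKO_Nex-Cre mutants of the study, floxed BAF155 (*Smarcc1*) and floxed BAF170 (*Smarcc2*), which code for core subunits of the BAF chromatin remodelling complex, are deleted by Nex-Cre. The controls of the study are Cre-negative and carry 1 floxed and 1 wild-type allele of each gene (BAF155fl/+, BAF170fl/+), and all animals are on a C57BL6/J background. The paper describes the Nex-Cre deletion as confined to the principal neurons of the cortex. It considers glia or interneurons a likely source of the subunits that remain in the mutant tissue. Which cells of these samples kept both genes, dividing cells among them, was not tested. The labels do not say that the samples came from separate animals, so that p values measure the spread between these samples.

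Cells that enter the cycle first load the Mcm helicase onto DNA, a step called licensing, and then copy their DNA with the help of the sliding clamp Pcna and of enzymes that make nucleotides. Cdk1 with cyclins A and B drives the entry into mitosis, and kinases such as Plk1 and the Aurora kinases, motor proteins and the centromere proteins then build the spindle. A ubiquitin ligase called the anaphase promoting complex (APC/C) ends mitosis by marking cyclin B for destruction. In the newborn cortex, dividing cells are radial glia and intermediate progenitors near the ventricle, and precursors of glia and cells of vessels elsewhere, whereas projection neurons have left the cycle. Many genes of the late cycle share promoter motifs, among them the CHR element (cell cycle genes homology region) and the CCAAT box. The CHR element is known for repression by the DREAM complex in resting cells, while genes of S phase often carry E2F sites.

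The starts of 35 of the 42 genes were found in a RefSeq table of promoters (GRCm38.p6). In the window of 300 bases, from 250 bases before to 50 bases after the start, 20 of these 35 promoters (57.1%) held a CHR match (TTTGAA, or its variant TTCGAA, either strand), against 19.4% of 27025 promoters of all genes. A CCAAT match (CCAAT, either strand) was found in 27 (77.1%, against 37.9%), and a CHR and a CCAAT match together in 19 (54.3%, against 7.70%). An E2F match (TTCCCGC, or the variant TTGGCGC, or the variant TTCGCGC, or the variant TTGCCGC, either strand) was found in 12 (34.3%, against 9.69%). Among the mitotic kinases and regulators, all 7 promoters found held a CHR and a CCAAT match and 0 of 7 an E2F match. Among the licensing and G1/S genes, 6 of 9 promoters held an E2F match and 2 of 9 a CHR match. In this group the windows of *E2f1*, *Mcm7* and *Cdc6* lay inside the annotated gene, and that of *E2f1* held no match. A match or its lack in these windows may not describe the promoter. The motif classes overlap in places. A match describes letters in a window and does not show binding of a factor. The sequences of 4 promoters are shown because they hold these motifs in different combinations and their windows before the start lie outside annotated exons. Each is given 5′ to 3′ on the strand of the gene, for the 250 bases before the start, with CHR, CCAAT and E2F matches of either strand in capitals. The window of *Top2a* (chr11:99024190-99024439, minus strand) is crowded with CHR and CCAAT matches, that of *Mki67* (chr7:135716380-135716629, minus strand) holds all 3 motifs, that of *Bub1b* (chr2:118597961-118598210, plus strand) holds a CHR and a CCAAT match, and that of *Rrm1* (chr7:102441445-102441694, plus strand) holds an E2F match between CCAAT matches and no CHR match.
*Top2a*: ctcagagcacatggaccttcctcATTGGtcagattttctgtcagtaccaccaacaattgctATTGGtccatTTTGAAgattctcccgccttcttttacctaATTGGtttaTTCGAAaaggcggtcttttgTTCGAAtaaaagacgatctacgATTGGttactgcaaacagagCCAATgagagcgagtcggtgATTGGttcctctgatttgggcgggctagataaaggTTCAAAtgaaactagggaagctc
*Mki67*: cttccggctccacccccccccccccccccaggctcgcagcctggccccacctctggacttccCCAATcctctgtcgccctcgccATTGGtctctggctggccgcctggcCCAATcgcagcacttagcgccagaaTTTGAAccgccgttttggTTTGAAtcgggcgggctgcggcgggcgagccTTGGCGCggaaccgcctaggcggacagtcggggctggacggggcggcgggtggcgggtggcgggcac
*Bub1b*: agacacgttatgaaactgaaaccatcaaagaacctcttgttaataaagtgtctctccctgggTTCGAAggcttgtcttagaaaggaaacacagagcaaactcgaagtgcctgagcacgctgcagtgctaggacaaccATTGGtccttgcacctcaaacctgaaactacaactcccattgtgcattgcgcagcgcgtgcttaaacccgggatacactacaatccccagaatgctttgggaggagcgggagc
*Rrm1*: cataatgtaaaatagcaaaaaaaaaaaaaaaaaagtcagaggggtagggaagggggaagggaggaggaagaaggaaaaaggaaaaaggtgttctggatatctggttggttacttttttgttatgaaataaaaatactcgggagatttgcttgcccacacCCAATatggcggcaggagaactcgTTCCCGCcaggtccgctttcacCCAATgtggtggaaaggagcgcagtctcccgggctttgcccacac

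Total counts per library ranged from 17958641 to 35191912, and the 42 genes took 0.0819% to 0.133% of them, or 15343 to 33713 counts. Levels are in CPM, counts scaled to a common size of library after TMM normalization in edgeR. Differences were tested across 16287 genes with enough counts by the quasi-likelihood method of edgeR, two-sided, and p values were adjusted by Benjamini and Hochberg over all of them. A gene was called at an adjusted p under 0.05. Log2 fold changes are given as dcKO_Nex-Cre over control. The targeted genes were called lower in the mutant, with log2 fold changes of -0.81 for *Smarcc2* (adjusted p = 0.00267) and -0.53 for *Smarcc1* (adjusted p = 0.0348), with no overlap between the groups. Mitochondrial genes took 2.33% to 6.87% of the counts, with the highest share of each group in control 2 (6.87%) and dcKO_Nex-Cre 4 (6.15%). In the file names, dcKO_Nex-Cre 3 and 4 carry a lane tag of 8 and the other 6 libraries one of 2, and the labels do not say what the tags mark. In whole tissue, fewer cells of a type and less RNA per cell cannot be told apart.

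None of the 42 genes was called in either direction, although the group means of most lay slightly higher in the dcKO_Nex-Cre cortex. Their summed level averaged 964 ± 84.5 CPM in control and 1084 ± 169 CPM in mutant libraries (SD, n = 4 each), 112% of the control. By control library the sums were 1006, 840, 983 and 1026 CPM, and by dcKO_Nex-Cre library 915, 1292, 1145 and 983 CPM. The ranges of the groups overlapped, since dcKO_Nex-Cre 1 lay below 3 of the 4 control libraries and dcKO_Nex-Cre 2 above all others. With edgeR's test, 0 members were called higher and 0 lower, where 0.375% of all tested genes were called higher and 0.51% lower, and the adjusted p ranged from 0.131 to 0.994. At an unadjusted p under 0.05, 3 members were higher (*Mcm7*, *Rrm1* and *Cenpe*) and 0 lower, against 6.59% and 7.05% of all tested genes. DESeq2's Wald test called 1 member, *Mcm7*, where 1.32% of all tested genes were called higher, and limma-voom called 0, where 0.313% were. The log2 fold change was above 0 for 37 of the 42 genes, against 50.9% of all tested genes, and its median was 0.15 against 0.00 over all tested genes. The genes share their libraries, so that this count is a description of these samples. For 2 members, *Mcm7* and *Rrm1*, every dcKO_Nex-Cre library lay above every control library, against 3.99% of all tested genes.

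**Figure D1:**
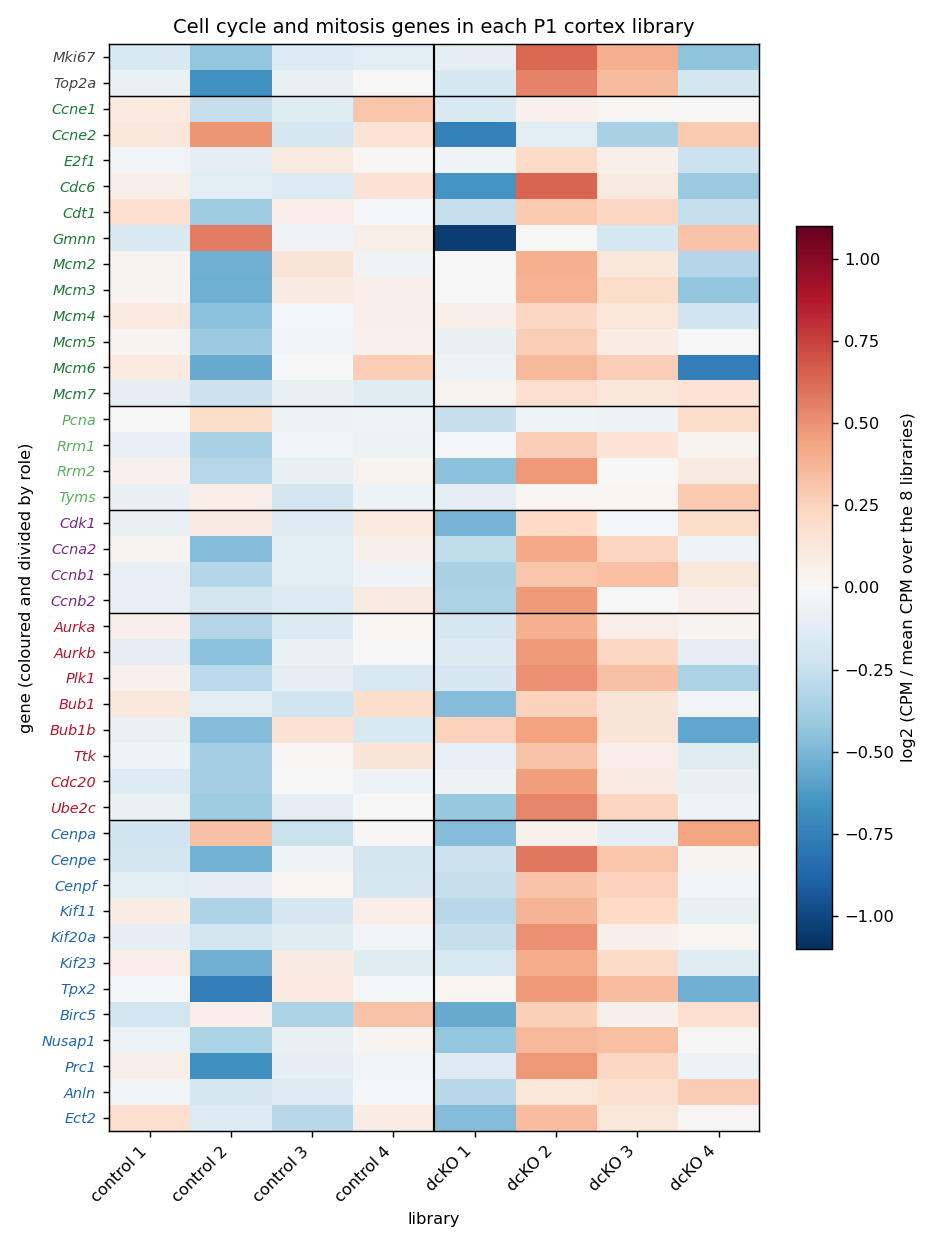
Level of each of the 42 genes in each library, as the log2 ratio of its CPM to the gene's mean over the 8 libraries (colour, red above and blue below the mean), with genes in rows by role and libraries in columns. The column of dcKO_Nex-Cre 2 is red for most genes and holds the highest value of 33 of the 42 (against 10.9% of 13277 genes). Control 2 and dcKO_Nex-Cre 1 hold the lowest value of 19 and 17 (against 20.8% and 19.4%).

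**Figure D2:**
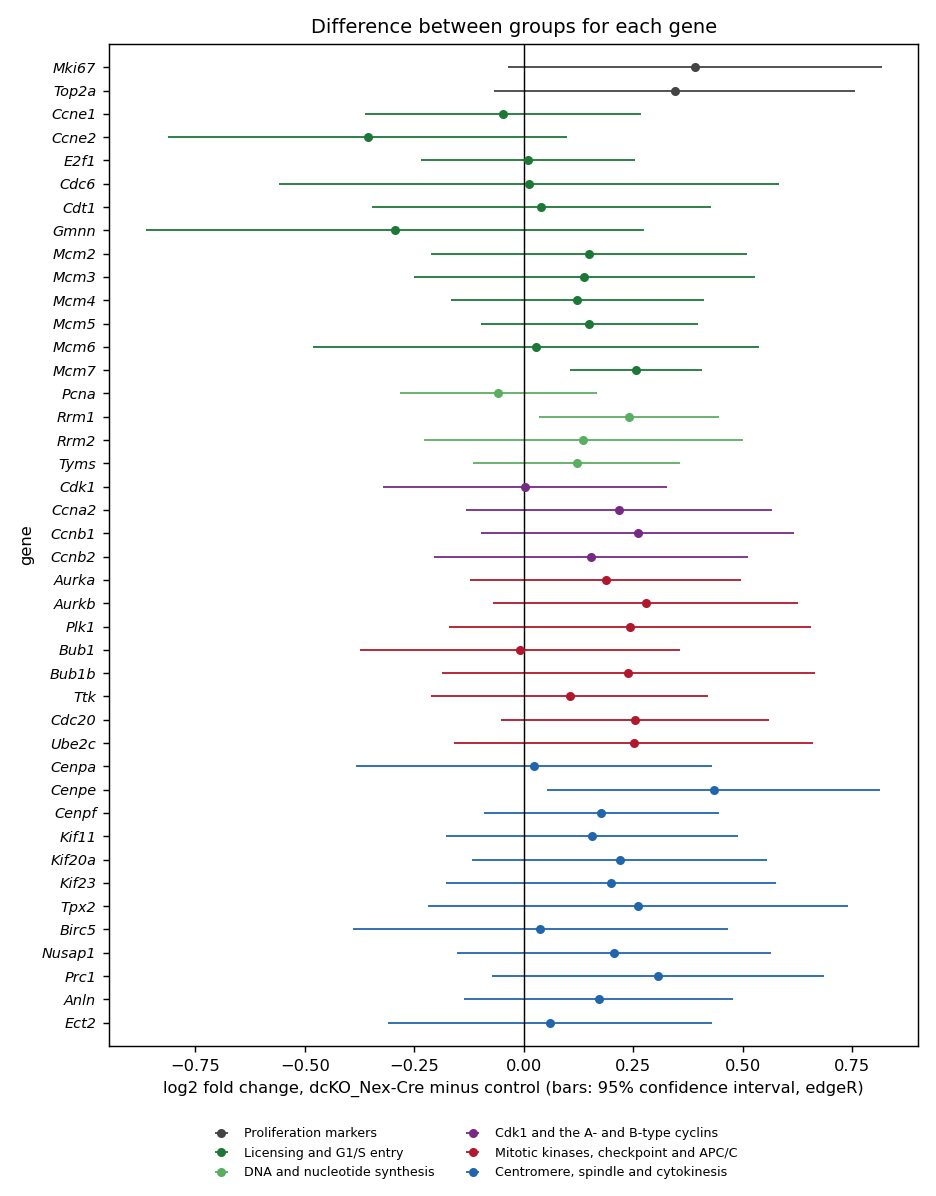
Log2 fold change (dcKO_Nex-Cre over control) of each gene by role, with points for the estimates of edgeR and bars for the 95% confidence intervals. The interval excludes 0 for 3 of the 42 genes, *Mcm7*, *Rrm1* and *Cenpe*.

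The proliferation markers are *Mki67*, which codes for the Ki-67 protein that coats mitotic chromosomes, and *Top2a*, a topoisomerase that untangles sister chromatids. *Mki67* (ENSMUSG00000031004, chromosome 7 of GRCm38, 135689784 to 135716361) was at 37.2, 31.1, 37.6 and 38.5 CPM in the control and at 38.8, 64.7, 55.0 and 30.7 CPM in the dcKO_Nex-Cre libraries. Libraries 2 and 3 of the mutant lay well above all controls, library 1 just above them and library 4 below them. The means were 36.1 ± 3.36 and 47.3 ± 15.4 CPM (SD, n = 4), with a log2 fold change of 0.39 (95% confidence interval -0.04 to 0.82, adjusted p = 0.399 from edgeR). *Top2a* (ENSMUSG00000020914, chromosome 11, 98992943 to 99024189) was at 75.2, 49.9, 74.6 and 79.1 CPM in the control and at 69.3, 116, 101 and 68.6 CPM in the dcKO_Nex-Cre libraries. The same mutant libraries, 2 and 3, exceeded the controls, while mutant libraries 1 and 4 lay inside the control range. Its log2 fold change was 0.34 (95% confidence interval -0.07 to 0.76, adjusted p = 0.439 from edgeR), so that for both genes the spread within the mutant was too wide to tell a rise from no change. Summed over both genes, the mutant mean was 128% of the control, the largest share among the 6 role groups.

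The licensing and G1/S group has 12 members, of which 9 had a log2 fold change above 0 and 3 below, with a median of 0.03. Their summed level averaged 288 ± 30.7 CPM in control and 310 ± 38.8 CPM in mutant libraries (SD, n = 4 each). *Mcm7*, a subunit of the Mcm2-7 helicase, had the smallest p of the 42 genes. *Mcm7* (ENSMUSG00000029730, chromosome 5, 138164583 to 138172422) was at 73.0, 66.4, 74.1 and 71.5 CPM in the control and at 80.3, 88.9, 84.8 and 86.7 CPM in the dcKO_Nex-Cre libraries. All 4 mutant libraries lay above all 4 controls (p = 0.0286 by an exact permutation test, two-sided, which is the smallest that 4 against 4 libraries allow). The means were 71.2 ± 3.38 and 85.2 ± 3.67 CPM (SD, n = 4), or 120% of the control, and the log2 fold change was 0.26 (standard error 0.07, 95% confidence interval 0.11 to 0.41). Its adjusted p was 0.131 from edgeR and 0.0241 from DESeq2's Wald test. Without dcKO_Nex-Cre 4, edgeR called it with an adjusted p of 0.0476 (3.98% of all tested genes were then called higher), and without control 2 and dcKO_Nex-Cre 4 with an adjusted p of 0.0392 (5.49%). Over its alternatives the adjusted p ranged from 0.0241 to 0.385 and the log2 fold change from 0.22 to 0.28. *Mcm7* shares 321 exonic bases with *Ap4m1* and 64 with *Cops6* on the opposite strand, and the library kit does not mark strand, so that reads of these stretches could not be told apart. *Ap4m1* had a log2 fold change of 0.16 (adjusted p = 0.465 from edgeR) and *Cops6* of -0.20 (adjusted p = 0.232).

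The other helicase subunits differed less. *Mcm2*, *Mcm3*, *Mcm4*, *Mcm5* and *Mcm6* showed log2 fold changes of 0.15, 0.14, 0.12, 0.15 and 0.03, and their adjusted p by edgeR lay between 0.569 and 0.966. In none of these 5 did all mutant libraries exceed all controls, and the 95% intervals reached from -0.48 to 0.54. The difference between *Mcm7* and its partners was not tested. The loading factors *Cdc6* and *Cdt1*, which bring the helicase to origins, had log2 fold changes of 0.01 and 0.04, and the transcription factor *E2f1* of 0.01. The 3 members below 0 were the S phase cyclins *Ccne1* (-0.05) and *Ccne2* (-0.36) and the licensing inhibitor *Gmnn* (-0.29), all short of the threshold (adjusted p = 0.905, 0.468 and 0.629 from edgeR). *Ccne2* was at 10.5 to 16.6 CPM in the control and 7.10 to 14.5 CPM in the dcKO_Nex-Cre libraries, and *Gmnn* at 6.59 to 10.9 CPM and 3.59 to 9.21 CPM. For both, the highest library of each group was its library of highest mitochondrial share, control 2 and dcKO_Nex-Cre 4. *Ccne2* shares 609 exonic bases with *Ints8* on the opposite strand, which limits its counts in the same way as those of *Mcm7*.

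**Figure D3:**
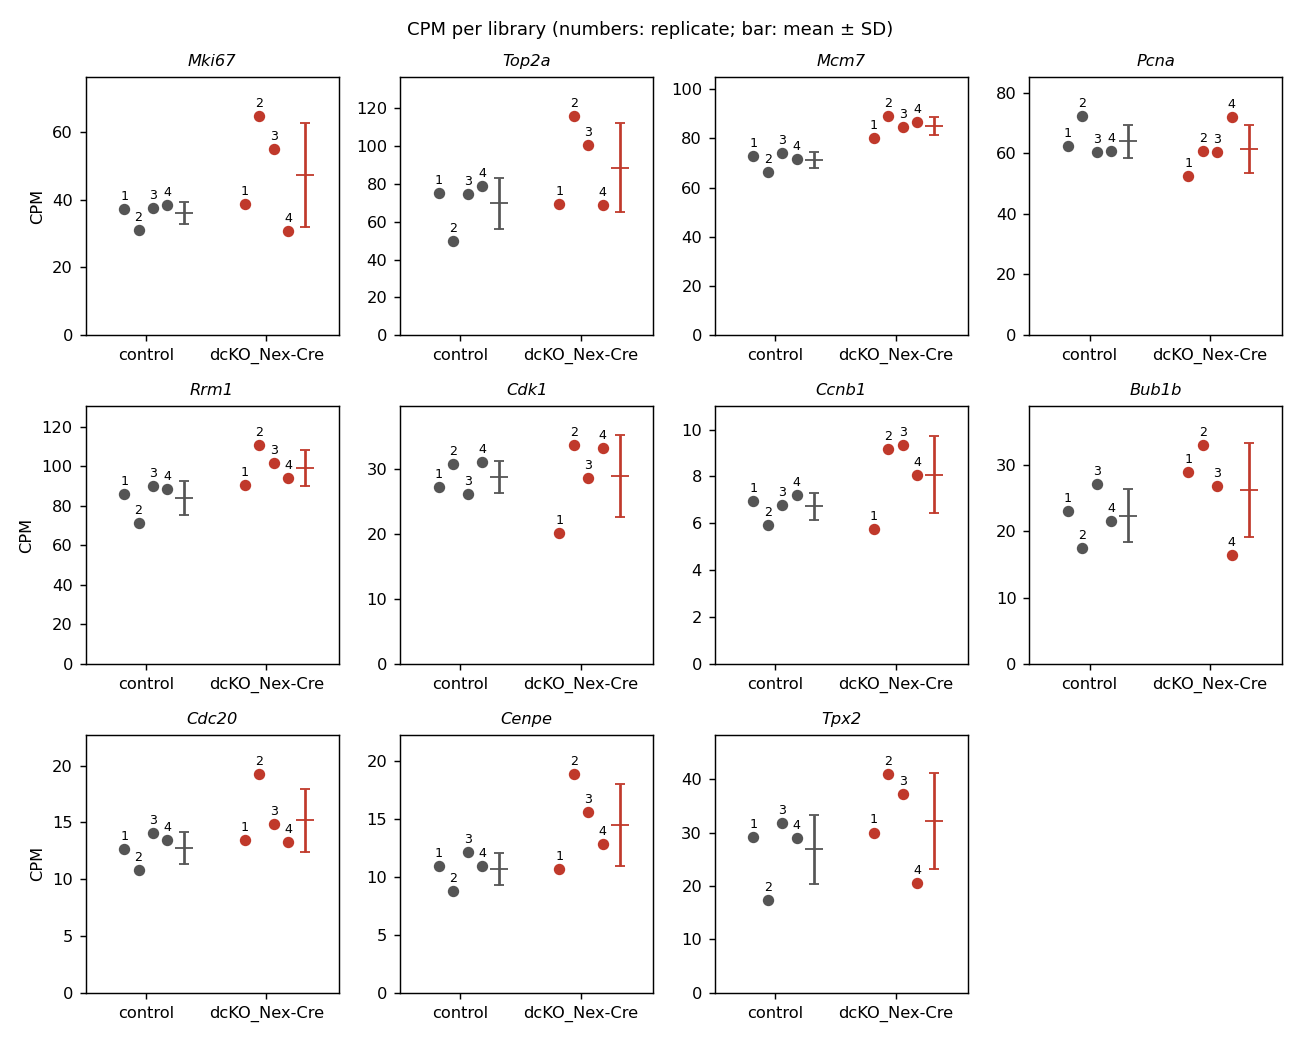
CPM of 11 genes in each library (y axis from 0, points numbered by replicate, control and dcKO_Nex-Cre side by side on the x axis, horizontal marks with error bars for the mean and SD of 4 libraries). Only for *Mcm7* and *Rrm1*, of the 11 genes, do the groups not overlap, and for *Cdk1* the range of the mutant encloses that of the control.

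Of the 4 genes of DNA and nucleotide synthesis, *Rrm1* and *Rrm2* code for the subunits of ribonucleotide reductase, *Tyms* for thymidylate synthase and *Pcna* for the sliding clamp. *Rrm1* (ENSMUSG00000030978, chromosome 7, 102441695 to 102469771) was at 86.2, 71.4, 89.9 and 88.3 CPM in the control and at 90.3, 111, 102 and 94.0 CPM in the dcKO_Nex-Cre libraries. The lowest mutant library lay just above the highest control, and the means were 84.0 ± 8.53 and 99.2 ± 8.99 CPM (SD, n = 4). The log2 fold change was 0.24 (95% confidence interval 0.03 to 0.45, adjusted p = 0.294 from edgeR, exact permutation p = 0.0286). As for *Mcm7*, this permutation p is the smallest possible and follows from the lack of overlap. It is not adjusted for the number of genes. *Pcna* (ENSMUSG00000027342, chromosome 2, 132249162 to 132253314) was at 62.5, 72.1, 60.3 and 60.7 CPM in the control and at 52.6, 60.6, 60.5 and 72.1 CPM in the dcKO_Nex-Cre libraries. Its groups overlapped, and the highest library of each group was again control 2 and dcKO_Nex-Cre 4. The log2 fold change of *Pcna* was -0.06 (95% confidence interval -0.28 to 0.17, adjusted p = 0.826 from edgeR). This interval lies below the estimates for *Mcm7* and *Rrm1* but overlaps their intervals, and the difference between these genes was not tested. *Rrm2* and *Tyms* had log2 fold changes of 0.14 and 0.12 (adjusted p = 0.737 and 0.637).

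*Cdk1*, the kinase of mitotic entry, had the log2 fold change nearest to 0 of the 42 genes in edgeR's fit. *Cdk1* (ENSMUSG00000019942, chromosome 10, 69335146 to 69352938) was at 27.2, 30.7, 26.1 and 31.0 CPM in the control and at 20.2, 33.6, 28.6 and 33.2 CPM in the dcKO_Nex-Cre libraries. The mutant range enclosed the control range, with dcKO_Nex-Cre 1 lowest. The log2 fold change was 0.00 (95% confidence interval -0.32 to 0.33, adjusted p = 0.994 from edgeR). *Ccnb1* (ENSMUSG00000041431, chromosome 13, 100778650 to 100786570), which codes for cyclin B1, was at 6.96, 5.91, 6.80 and 7.22 CPM in the control and at 5.77, 9.16, 9.33 and 8.08 CPM in the dcKO_Nex-Cre libraries. Mutant libraries 2, 3 and 4 lay above all controls and library 1 below all of them. The log2 fold change of *Ccnb1* was 0.26 (95% confidence interval -0.10 to 0.62, adjusted p = 0.497 from edgeR). The cyclin genes *Ccna2* and *Ccnb2* had log2 fold changes of 0.22 and 0.15. *Ccna2* shares 510 exonic bases with *Exosc9* on the opposite strand, and the pseudogene *Ccnb2-ps* had as many counts (248 on average) as *Ccnb2* itself (246), so that the split of reads between the latter 2 is uncertain.

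Of the 8 mitotic kinases and regulators, 7 had a log2 fold change above 0, with a median of 0.24, and all 8 had their highest value in dcKO_Nex-Cre 2. *Bub1b*, a kinase-like protein of the spindle checkpoint, had the most counts of the group. *Bub1b* (ENSMUSG00000040084, chromosome 2, 118598211 to 118641591) was at 23.0, 17.5, 27.1 and 21.5 CPM in the control and at 28.9, 32.9, 26.8 and 16.3 CPM in the dcKO_Nex-Cre libraries. The lowest library of each group was its library of highest mitochondrial share. Its log2 fold change was 0.24 (95% confidence interval -0.19 to 0.66, adjusted p = 0.600 from edgeR). *Cdc20* (ENSMUSG00000006398, chromosome 4, 118432901 to 118437352), the activator of APC/C, had the smallest p of the group and was at 12.7, 10.8, 14.1 and 13.5 CPM in the control and at 13.5, 19.2, 14.9 and 13.2 CPM in the dcKO_Nex-Cre libraries. Apart from dcKO_Nex-Cre 2 and 3, the mutant values lay in the control range. Its log2 fold change was 0.25 (95% confidence interval -0.05 to 0.56, adjusted p = 0.446 from edgeR). The Aurora kinase genes *Aurka* and *Aurkb* had log2 fold changes of 0.19 and 0.28, *Plk1* of 0.24, and the checkpoint kinases *Bub1* and *Ttk* of -0.01 and 0.10. *Ube2c*, the ubiquitin-conjugating enzyme that works with APC/C, had one of 0.25.

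All 12 genes of the centromere, spindle and cytokinesis group had a log2 fold change above 0, from 0.02 (*Cenpa*, the centromeric histone) to 0.43 (*Cenpe*), and none was called. *Cenpe* (ENSMUSG00000045328, chromosome 3, 135212537 to 135273611), a kinesin that links chromosomes to spindle microtubules, was at 10.9, 8.81, 12.2 and 10.97 CPM in the control and at 10.7, 18.9, 15.6 and 12.9 CPM in the dcKO_Nex-Cre libraries. Mutant libraries 2, 3 and 4 lay above all controls, and library 1 inside their range. The log2 fold change of *Cenpe* was 0.43 (95% confidence interval 0.05 to 0.81, adjusted p = 0.305 from edgeR, exact permutation p = 0.114). *Tpx2* (ENSMUSG00000027469, chromosome 2, 152847964 to 152895321), which activates Aurora kinase A on the spindle, was at 29.2, 17.4, 31.8 and 29.0 CPM in the control and at 30.0, 40.9, 37.3 and 20.5 CPM in the dcKO_Nex-Cre libraries. As for *Bub1b*, control 2 and dcKO_Nex-Cre 4 were the lowest libraries of their groups. Its log2 fold change was 0.26 (95% confidence interval -0.22 to 0.74, adjusted p = 0.612 from edgeR). The genes of cytokinesis, *Prc1*, *Anln*, *Ect2* and *Kif23*, had log2 fold changes of 0.31, 0.17, 0.06 and 0.20. *Kif20a* shares 1271 exonic bases with *Cdc23* on the opposite strand, which has 2872 counts on average against 248.75 for *Kif20a*, and *Prc1* shares 911 with *Rccd1*, so that the counts of both may hold reads of the neighbour.

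**Figure D4:**
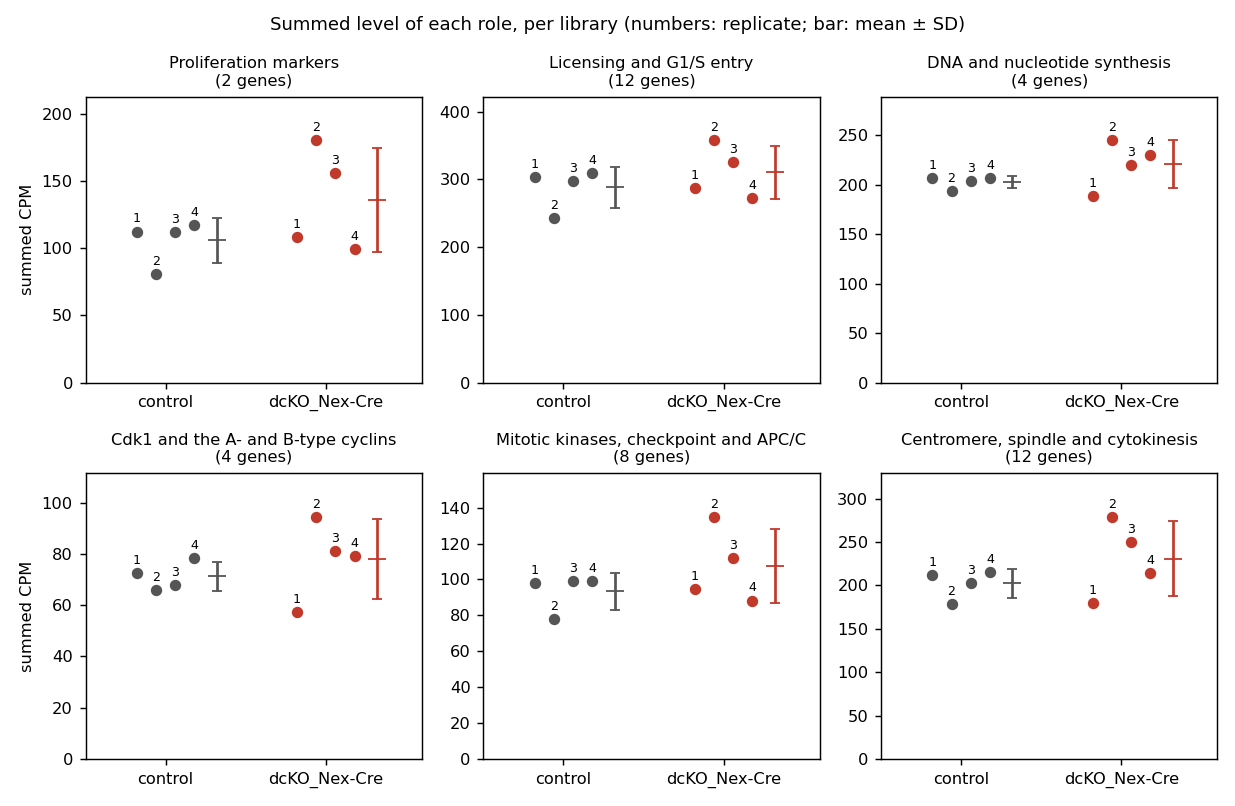
Summed CPM of the members of each role group in each library (y axis from 0, points numbered by replicate, control and dcKO_Nex-Cre on the x axis, horizontal marks with error bars for the mean and SD of 4 libraries). In all 6 groups the dcKO_Nex-Cre 2 library is the highest, and the ranges of the control and dcKO_Nex-Cre libraries overlap.

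Compared per kilobase of exon, the levels of the 42 genes ordered alike in both groups at the top. *Pcna* led with 26.6 CPM per kilobase in the control and 25.6 in the mutant, before *Mcm7* with 16.1 and 19.2, *Rrm2* with 14.0 and 15.4 and *Mcm6* with 10.1 and 10.3. *Anln* and *Cdc6* were lowest, with 0.922 and 0.609 CPM per kilobase in the control. *Mki67* was at 3.59 and *Top2a* at 7.74 CPM per kilobase in the control.

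The members spread more between the libraries of the mutant than between those of the control. The median coefficient of variation of the 42 genes was 13.4% among control and 21.01% among mutant libraries, and it was larger in the mutant for 36 genes (85.7%), against 67.3% of 13273 genes with at least 50 counts on average. In the library dcKO_Nex-Cre 2, 33 of the 42 genes had their highest value, against 10.9% of 13277 genes. Exceptions were *Pcna*, *Gmnn* and *Ccne2* (highest in control 2), *Ccne1* and *Birc5* (control 4), *Cenpa*, *Tyms* and *Anln* (dcKO_Nex-Cre 4) and *Ccnb1* (dcKO_Nex-Cre 3). Without dcKO_Nex-Cre 2 the median log2 fold change of the members was 0.07, 28 of 42 were above 0 and 1 (*Mcm7*) was higher at an unadjusted p under 0.05 (4.96% of all tested genes). In dcKO_Nex-Cre 1, 17 genes were lowest, against 19.4% of 13277 genes. Without this library the median was 0.27 and 13 genes were higher at an unadjusted p under 0.05 (4.87% of all tested genes), with 0 called. Without both libraries the median was 0.14, with 3 genes higher at an unadjusted p under 0.05 (3.24% of all tested genes). Within lane tag 2 (4 control and 2 dcKO_Nex-Cre libraries) the median was 0.18, with 4 genes higher (11.7% of all tested genes) and 1 lower at an unadjusted p under 0.05 and 0 called.

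Markers of some other cells were also high in dcKO_Nex-Cre 2. The 6 markers of intermediate progenitors, of which *Insm1* and *Eomes* held most, summed to 145 CPM there, against 88.0 to 117 CPM in the control and 90.3 to 127 CPM in the 3 other mutant libraries, and *Neurog1* was at 0 in 4 libraries. The 4 markers of striatal projection neurons summed to 78.0 CPM, against 32.8 to 47.9 CPM in the other 7 libraries. The 4 markers of the choroid plexus, of which *Ttr* held most, summed to 550 CPM, against 3.76 to 14.0 CPM in the 3 other mutant libraries and 16.0 to 1330 CPM in the control. Those of radial glia ranged from 2395 to 2767 CPM in the control and from 1978 to 2421 CPM in the mutant, where dcKO_Nex-Cre 2 was the lowest. *Fabp7* was the largest part of that sum, at 1427 to 1702 CPM in the control and 900 to 1349 CPM in the mutant, and without it the other 8 radial glia markers summed to 791 to 1065 CPM in the control and 807 to 1184 CPM in the mutant, with dcKO_Nex-Cre 2 at 1078 CPM, below dcKO_Nex-Cre 3 only. The 5 markers of endothelial and mural cells summed to 179 CPM in dcKO_Nex-Cre 2, against 109 to 165 CPM in the other 7 libraries. Of these 5 lists, 0 genes were called in either direction. Markers of oligodendrocyte precursors, which divide at this age, summed to 173 to 252.05 CPM in the control and 252.13 to 308 CPM in the mutant, with *Cspg4* called higher (1 of 5 genes, log2 fold change 0.56, adjusted p = 0.0355 from edgeR). Markers of projection neurons summed to 1465 to 1695 CPM in the control and 1215 to 1424 CPM in the mutant, with *Neurod6* called lower (1 of 7 genes, log2 fold change -0.74, adjusted p = 0.0192). Of the lists not given above, those of astrocytes and microglia had their highest sum in dcKO_Nex-Cre 3, that of erythroid cells in dcKO_Nex-Cre 4 and that of the interneuron lineage in control 2. No gene of these lists was called. Within the interneuron lineage, *Gad1*, *Gad2*, *Dlx1* and *Lhx6* were highest in control 2, but *Dlx2*, *Dlx5* and *Sp9* in dcKO_Nex-Cre 2. The part of all these cells in the levels of the 42 genes was not tested.

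The 2 libraries of highest mitochondrial share, control 2 and dcKO_Nex-Cre 4, deviated from the others of their groups in the same way. Over the 42 genes, the log2 ratio of control 2 to the other controls and that of dcKO_Nex-Cre 4 to the other mutant libraries had a Pearson's r of 0.83 and a Spearman's rho of 0.74, against 0.42 and 0.50 over 13277 genes. Genes within a library are not independent, and these values carry no test. In both libraries, 5 members (*Ccne2*, *Gmnn*, *Pcna*, *Tyms* and *Cenpa*) were above all other 6 libraries and 12 were below them (*Mki67*, *Top2a*, *E2f1*, *Cdt1*, *Mcm2*, *Mcm3*, *Mcm4*, *Mcm6*, *Plk1*, *Bub1b*, *Ttk* and *Tpx2*). Those shares were 11.9% and 28.6%, against 16.8% and 15.2% of all genes. For *Mcm6* the log2 ratio was -0.68 in control 2 and -0.96 in dcKO_Nex-Cre 4, whereas for *Gmnn* it was 0.61 and 0.66. With the exon length of the genes, the ratios had a Spearman's rho of -0.12 in control 2 and -0.16 in dcKO_Nex-Cre 4, against -0.01 and -0.26 over 13277 genes. With the GC content of the members it was -0.08 and -0.26. Without both libraries, the median log2 fold change of the members was 0.14, with 5 genes higher (*Mcm7*, *Rrm1*, *Mki67*, *Bub1b* and *Tpx2*, against 14.9% of all tested genes) and 1 lower (*Ccne2*) at an unadjusted p under 0.05, and *Mcm7* called.

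**Figure D5:**
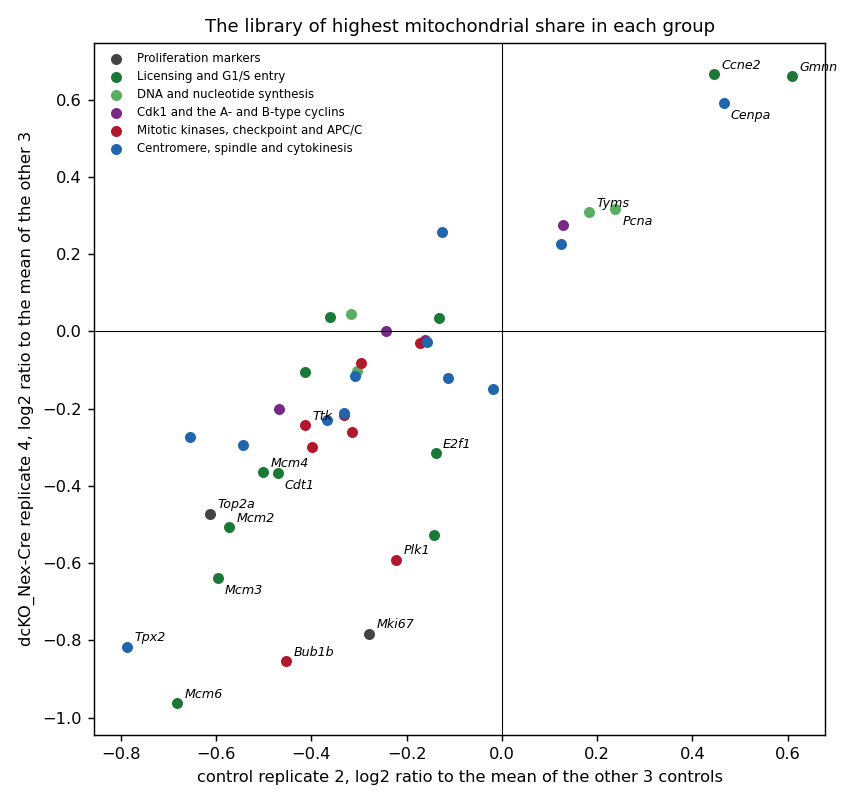
Each of the 42 genes by the log2 ratio of its CPM in control 2 to the mean of the other controls (x axis) and in dcKO_Nex-Cre 4 to the mean of the other dcKO_Nex-Cre libraries (y axis). Points lie along the diagonal, from *Mcm6* and *Tpx2* at the lower left to *Gmnn* at the upper right. In both libraries 38 of the 42 genes deviate in the same direction, against 9047 of 13277 genes with at least 50 counts on average.

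By promoter motif, the 20 genes with a CHR match had a median of 0.18 on the log2 scale, and 18 of these genes were highest in dcKO_Nex-Cre 2, against 0.12 and 10 of 15 for the genes without. The 27 genes with a CCAAT match had a median of 0.18, with 24 highest in dcKO_Nex-Cre 2, against 0.04 and 4 of 8 for the genes without. With and without an E2F match the medians were 0.14 (12 genes, 11 highest in dcKO_Nex-Cre 2) and 0.17 (23 genes, 17 highest there). These are descriptions without a test.

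Of 130 other cell cycle genes, listed by role and not by their change, 129 were tested and 0 were called, while 82 had a log2 fold change above 0 (median 0.05). At an unadjusted p under 0.05, 7 of 129 were higher and 3 lower, both below the shares of all tested genes (6.59% and 7.05%). In each sublist the gene with the smallest p is given. *Cdk6*, the kinase partner of the D-type cyclins, averaged 16.8 ± 2.31 CPM in control and 24.8 ± 6.12 CPM in mutant libraries (SD, n = 4 each), a log2 fold change of 0.57 (adjusted p = 0.184 from edgeR). Mutant libraries 1 to 3 lay at 22.8 to 30.3 CPM, above all controls, and library 4 at 17.1 CPM inside their range. *Cdkn2d*, an inhibitor of Cdk4 and Cdk6, was lower in every mutant library, at 36.5 to 38.1 CPM against 40.3 to 47.7 CPM (log2 fold change -0.23, adjusted p = 0.206). *Tfdp2*, a dimerization partner of E2F factors, was higher in every mutant library, at 40.2 to 45.2 CPM against 34.1 to 38.3 CPM (log2 fold change 0.25, adjusted p = 0.189). *Gins2*, part of the replicative helicase, had a log2 fold change of -0.47 (adjusted p = 0.210), and *Ncapd2*, a condensin subunit, of 0.26 (adjusted p = 0.214). Of the 53 genes of the kinetochore, condensin and spindle, 33 were highest in dcKO_Nex-Cre 2, as were 58 of all 129. Without dcKO_Nex-Cre 4, 8 of the 129 were called (*Ccnd3*, *Cdk6*, *Dnmt1*, *Gins2*, *Ncapd2*, *Orc4*, *Pole* and *Rb1*), when 1278 of all tested genes (7.73%) were called.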

How the data were processed

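RNA of whole P1 cortex from 4 control and 4 dcKO_Nex-Cre samples was sequenced after TruSeq RNA v2 library preparation, a kit that does not mark strand. What the authors deposited is 1 file of raw counts by Ensembl gene per sample, not normalized, with mm10 as the build in the submitters' processing notes. The aligner, counting program, annotation and strand setting are not given in the sources used here. That the mutants are dcKO_Nex-Cre was taken from the paper, since the labels give only control and mutant. Positions, exon lengths and overlaps are those of GENCODE M21 on GRCm38. All 42 genes were matched by symbol.

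Fits were made with edgeR 4.0.16 under R 4.3.3 (filterByExpr, TMM normalization, robust quasi-likelihood F test without covariates). The code was run beforehand on simulated counts, drawn independently for each gene. There, 200 genes were changed by more than any difference seen among the 42 genes. That run does not show how well small differences shared between genes are detected. No pair of libraries within a group were copies, since the chi-square per degree of freedom was at least 3.77. Confidence intervals are 95% intervals from the log2 fold change, its standard error and the degrees of freedom of each gene in this fit. Between 75.4 and 2186 counts on average stood behind each of the 42 genes. The results were recomputed with limma-voom (limma 3.58.1), with DESeq2 1.42.0 (Wald test), with its size factors in place of TMM, without a filter, with a minimum of 10 counts in every library, with a block for the replicate number, within lane tag 2, and without each library in turn. Leaving out control 2 with dcKO_Nex-Cre 4, and dcKO_Nex-Cre 1 with 2, was chosen after seeing the data.

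The members and lists were chosen with earlier results of these data known. Values in every library are given for members with an adjusted p under 0.05, for the member with the smallest p and that with the most counts in each role, and for *Mki67*, *Top2a*, *Cdk1*, *Pcna* and *Ccnb1*. Among the other cell cycle genes, the gene with the smallest p of each sublist is described. Python 3.11.15 served for tables (pandas 2.3.3), permutation tests (SciPy 1.17.1) and figures (matplotlib 3.10.9).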

Additional observations from a re-analysis of the deposited data

Results flagged for a closer look

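In 62 groups of 4 libraries (the CPM of single genes and the summed CPM of lists), a library was looked for that lay far from the other 3, which chance gives in about 1 group in 20. *Top2a* was at 49.9 CPM in control 2, against 74.6 to 79.1 CPM in the other controls. The summed level of the proliferation markers was 81.1 CPM in control 2, against 112 to 118 CPM, and that of the mitotic kinases and regulators 77.9 CPM, against 98.0 to 99.1 CPM. Control 2 was also low for the markers of oligodendrocyte precursors (173 CPM, against 244 to 252 CPM) and for those of endothelial and mural cells (109 CPM, against 153 to 161 CPM). In the dcKO_Nex-Cre cortex, the markers of projection neurons were high in library 1 (1424 CPM, against 1215 to 1250 CPM), and those of the choroid plexus in library 2 (550 CPM, against 3.76 to 14.0 CPM).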

How the results depend on the processing

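No member was called lower in any fit. *Mcm7* was called by DESeq2's Wald test and without the 2 libraries of highest mitochondrial share (1 member called in each, against 0), and with each library left out in turn 0 to 1 members were called higher, 1 without dcKO_Nex-Cre 4. Members at an unadjusted p under 0.05 numbered 3, but 5 within lane tag 2, 6 without the 2 libraries of highest mitochondrial share and 1 to 13 with a library left out (1 without control 2, dcKO_Nex-Cre 2 or 3, 8 without dcKO_Nex-Cre 4, of which 7 were higher where 14.3% of all tested genes were, and 13 without dcKO_Nex-Cre 1). Members whose groups did not overlap numbered 2, but 1 with at least 10 counts in every library (3.98% of all tested genes were higher without overlap), 4 within lane tag 2 (17.4%), 6 without dcKO_Nex-Cre 1 and 2 (7.57%), and 1 to 6 with a library left out (5.18% without dcKO_Nex-Cre 1, which gave 6). Of the other cell cycle genes, 8 of 129 were called without the 2 libraries of highest mitochondrial share, where 11% of all tested genes were, and 0 to 8 with a library left out. The median log2 fold change of the members stayed above 0, from 0.07 to 0.27. Among the 11 genes with printed values, *Cdk1* turned negative with limma-voom (-0.039), at least 10 counts in every library (-0.0014), the replicate block (-0.017), lane tag 2 only (-0.10) and without the 2 libraries of highest mitochondrial share (-0.034), with -0.079 to 0.15 when a library was left out. *Pcna* turned positive without dcKO_Nex-Cre 1 and 2 (0.048) and had -0.14 to 0.013 with a library left out, and *Bub1b* turned negative (-0.051) without dcKO_Nex-Cre 1 and 2. The causes were not tested. Replicate numbers did not pair the libraries. Same-numbered libraries had correlations of 0.13, 0.02, 0.13 and -0.14, and no library correlated best with the one of its own number. With the replicate block, 54 of all tested genes were called instead of 144, and of the members 0 were called and 3 had an unadjusted p under 0.05. The member with the fewest counts was *Cdc6* (75.4 on average, 95% interval -0.56 to 0.58), and *Gmnn* with 166 and *Mcm6* with 1154 counts had intervals nearly as wide (-0.86 to 0.27 and -0.48 to 0.54), so that the width did not follow depth alone.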
